A study of Mus musculus with 16 samples.

Results

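The proteasome subunit genes of mouse embryonic stem cells were followed while the AAA+ ATPase RUVBL2 was degraded. Members were all genes whose symbol begins with Psma, Psmb, Psmc or Psmd and a digit, with pseudogene symbols left out, which gave 40 of the 55335 genes in the count table. Of these, 19 encode the core particle (Psma and Psmb genes) and 17 the regulatory particle (Psmc and Psmd genes). The other 4 are Psmd5, Psmd9 and Psmd10, which encode chaperones that assemble the base and leave it again, and Psmc3ip. Psmc3ip encodes a cofactor of meiotic recombination and is not a subunit. They were kept apart from the subunits in all counts by particle.

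The proteasome degrades ubiquitin-tagged proteins. Its core particle is a barrel in which an outer ring of alpha subunits at each end controls entry and the inner rings of beta subunits carry the proteolytic sites. The regulatory particle caps the barrel. Its base holds a ring of ATPases that unfold substrates and scaffold subunits that bind ubiquitin or its carriers, and its lid removes the ubiquitin chain. The subunits are needed in fixed proportion, and their genes are broadly expressed at high level. When proteasome activity is short, the transcription factor NFE2L1 is known to raise subunit transcription through antioxidant response elements. Embryonic stem cells depend on high proteasome activity.

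The cells were V6.5 embryonic stem cells in which both Ruvbl2 alleles carry the mAID degron and GFP, with a doxycycline-inducible OsTIR1 transgene, and all groups share these alleles. Single clones were picked to make the line, so that the groups describe a clonal line. It was grown on irradiated fibroblast feeders with LIF and taken off them before harvest. Poly(A) RNA was sequenced in 8 conditions of 2 libraries each. Mock cells received neither drug, Dox cells received 2 µg/ml doxycycline for 24 h, and the other 6 conditions received the same doxycycline and then 500 µM auxin for 0.5, 1, 6, 12, 24 or 48 h. The Dox libraries are the zero time point of the auxin series. No libraries come from cells kept without auxin for the same times, or from cells without the degron given auxin. Loss of RUVBL2, auxin itself and time in culture can therefore not be told apart. Dox was compared with Mock, and each auxin time with Dox, so that every comparison uses the same Dox libraries. An error in the Dox libraries would enter Dox against Mock with the opposite sign to the auxin comparisons. The libraries of a condition are called technical duplicates in the methods and replicates in the results of the study, and no label names separate cultures. What the p-values measure is therefore the spread of these duplicates alone, which may be technical.

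The libraries held between 11666732 and 13924958 expected counts, of which the members took 0.524 to 0.646%. Replicates varied between 1.57 and 2.92 times as much as counting noise alone. Ruvbl2 mRNA lay between 129 and 189 CPM (counts scaled to the TMM-normalized library size) in all 16 libraries. The degron acts on the protein, so this level does not check the labels. The 10 stem cell markers, among them Pou5f1, Sox2 and Nanog, summed to between 5614 and 7569 CPM. The 13 feeder fibroblast markers summed to 4.48 to 21.4 CPM, lowest in Mock and highest at 24 h, and 4 to 8 of them were at 0 in a library. The 6 primitive endoderm markers summed to at most 19.8 CPM and the 6 trophectoderm markers to 30.0 to 73.4 CPM. All 3 sums lay above the Dox libraries in the 6 h, 12 h and 48 h libraries, and the feeder and primitive endoderm sums did so at 24 h too. Their part in the results was not tested. In bulk RNA, fewer cells of a type and less RNA per cell cannot be told apart.

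Most members were expressed at high and even levels. Levels are given in TPM, the deposited transcript abundance, which is per length and allows genes to be compared. Over all 16 libraries Psmb5, the subunit with the chymotrypsin-like site, had the highest mean level of the core particle at 476 TPM. Psma6 led the alpha ring at 382 TPM and Psmc5, one of the base ATPases, led the regulatory particle at 439 TPM. The most abundant non-ATPase of the base was the scaffold Psmd2 at 396 TPM, and that of the lid was Psmd7 at 289 TPM. The 7 constitutive beta genes had mean levels between 147 and 476 TPM, the 6 ATPases between 80.7 and 439 TPM, and the 8 lid genes between 81.2 and 289 TPM.

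Genes for tissue-restricted subunits were far below these levels. Psma8, an alpha subunit of the testis that can take the place of Psma7, had a mean of 13.4 TPM against 172 TPM for Psma7. Among the beta subunits that replace the constitutive catalytic ones in the immunoproteasome, Psmb10 reached 21.4 TPM and Psmb9 2.64 TPM. Psmb8 held 46 counts in all libraries together, and Psmb11, the subunit of the thymus, held 2. Both were below the filter on low counts, so that 38 of the 40 members could be tested. The chaperones were also low, with 30.7 TPM for Psmd10, 29.8 TPM for Psmd5 and 7.42 TPM for Psmd9.

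For each of the 38 tested members the ratio of its highest to its lowest condition mean in TPM was taken. The median ratio was 1.35. It was 1.08 for Psmb1, a structural beta subunit and the most even member, and 5.05 for Psma8. The lowest condition mean fell at 48 h of auxin for 25 of the 38 members, and the highest in Mock for 20. These counts were not taken over all tested genes, so they cannot be called particular to the members.

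A gene was called when the adjusted p of edgeR's quasi-likelihood test (Benjamini-Hochberg over 15155 genes) was under 0.05 and its level moved by more than 1.5-fold. No member was called higher in any of the 7 comparisons under TMM, the scaling used throughout unless another is named. Of all tested genes 5.19% were called higher in Dox against Mock, and 0.455, 0.666, 10.1, 14.8, 20.2 and 17.9% after 0.5, 1, 6, 12, 24 and 48 h of auxin. At an unadjusted p under 0.05, in either direction and at any size, 26, 4, 13, 16, 19, 26 and 27 of the 38 members passed in the same order. Of all 15155 tested genes 6581, 2961, 3582, 7531, 9172, 10564 and 10132 passed that rule. DESeq2 and limma also called 0 members higher past 1.5-fold.

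Few members were called lower under TMM. The count was 0 of 38 in Dox against Mock (4.24% of all tested genes), and 0, 0, 1, 3, 2 and 5 after 0.5, 1, 6, 12, 24 and 48 h of auxin, where 0.277, 0.541, 5.7, 13.2, 20.3 and 17.6% of all tested genes were called lower. With scaling to reads of the fly genome dm6 the 3, 2 and 5 became 18, 6 and 9, and 3 members were higher in Dox against Mock. Most of this went with a shift of all genes. Under that scaling 6643, 4331 and 3737 of all 15155 tested genes were called lower after 12, 24 and 48 h. In Dox against Mock 3448 of them were called higher. The 11 calls under TMM fell on 6 genes, Psma8, Psmb10, Psmc5, Psmd1, Psmd9 and Psmd10. Of the 34 tested subunit genes, 1 was called after 12 h, 1 after 24 h and 4 after 48 h.

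The changes were mostly small, and a larger number passed the test at any size. In Dox against Mock 5 members were higher and 19 lower, beside 16.7% and 17.9% of all tested genes. After 0.5 h of auxin 0 were higher and 1 was lower (2.73% and 3.93% of all tested genes). After 1 h the members counted 5 higher and 1 lower (3.78% and 6.47%), and the 5 became 0 without either Dox library, 1 without the first 1 h library and 2 without the second. The 6 h libraries gave 3 higher against 11 lower (20.3% and 22.5%), and those of 12 h gave 8 of each (28.5% and 27.9%). After 24 h, 20 members were lower and 5 higher (34% and 33.3%), and after 48 h, 24 were lower and 3 higher (31.4% and 32.5%). Leaving out 1 library also moved the counts of Dox against Mock, to between 1 and 3 higher and between 11 and 15 lower, where the 11 came without the first Mock or the second Dox library. The 11 lower members of 6 h became 7 and the 3 higher became 1 without the second Dox library, and the 8 higher of 12 h became 4 without the first Dox library and 5 without either library of 12 h.

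The medians followed the same course. The median log2 fold change of the 38 members was -0.13 in Dox against Mock, and 0.041, 0.078, -0.026, -0.0027, -0.12 and -0.25 along the auxin series. Over all tested genes it lay between -0.018 and 0.015 in every comparison. Of the 38 members, 33 had a negative log2 fold change at 48 h and 28 in Dox against Mock, beside 7448 and 7777 of 15155 tested genes. At 0.5 h 32 members had a positive one, beside 7706 of all. The Dox libraries enter Dox against Mock and 0.5 h with opposite sign.

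**Figure D1:**
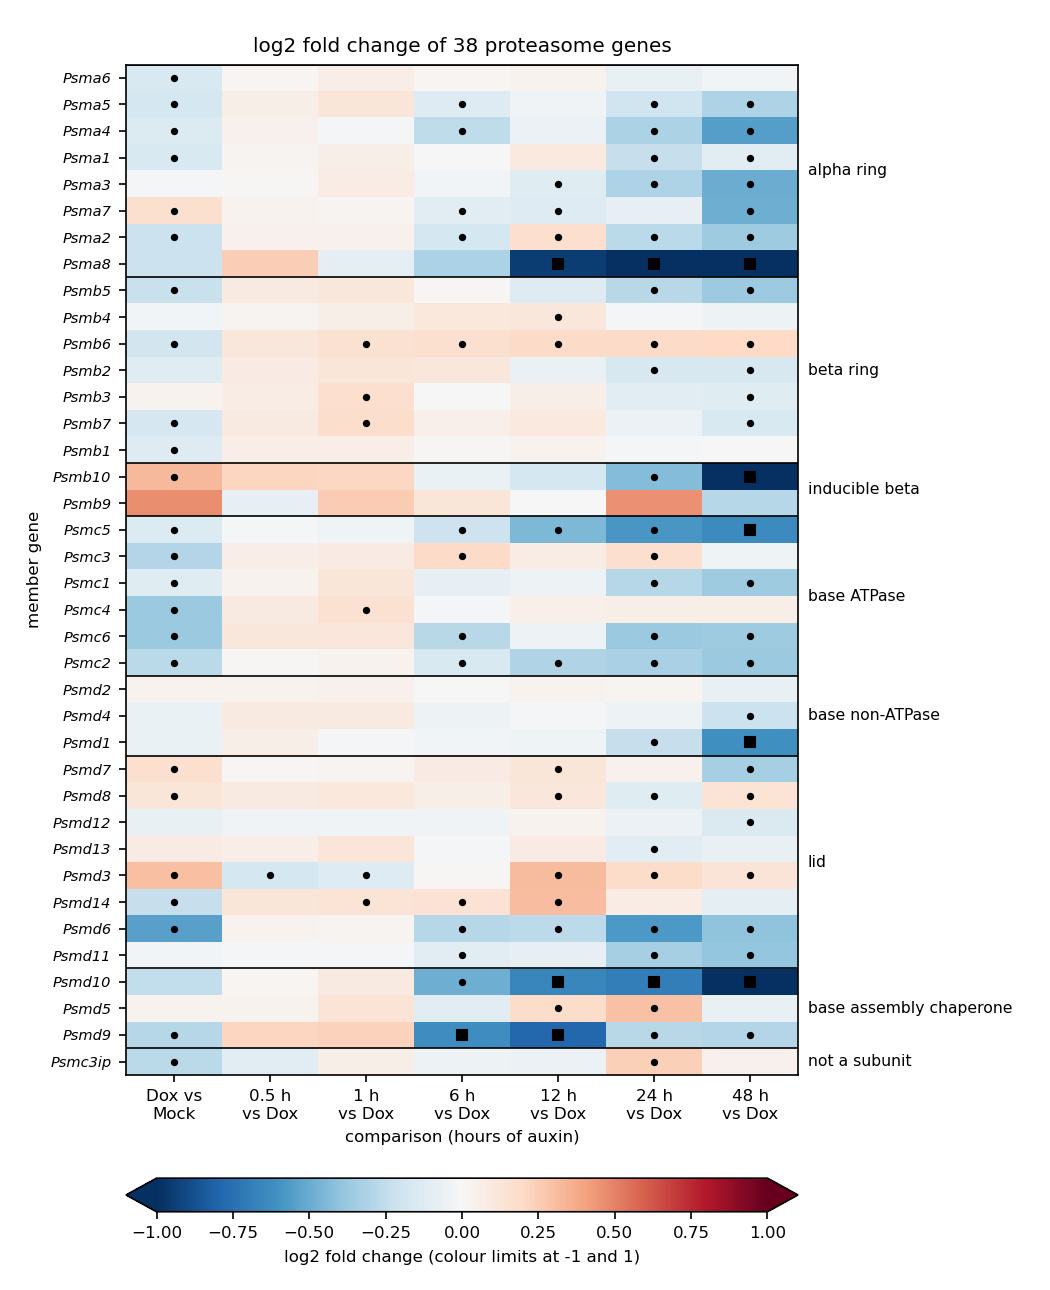
The heat map shows the edgeR log2 fold change of the 38 tested members (rows, grouped by role) in the 7 comparisons (columns), with colour limits at -1 and 1. Small dots mark an adjusted p under 0.05 and squares mark calls that also pass 1.5-fold; all 11 squares are decreases, 5 of them at 48 h.

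All of these values rest on a scaling (TMM) that sets the typical gene to no change. The study also gives the number of reads that aligned to the fly genome dm6 for each library, with no statement of how they entered these libraries. Scaling to those reads put the median log2 fold change of all genes at 0.38 in Dox against Mock, and at 0.19, -0.56, -0.23 and -0.18 after 1, 12, 24 and 48 h of auxin, and the median of the members at 0.26, 0.27, -0.56, -0.33 and -0.44. At any size 30, 0, 34, 3, 0, 0 and 0 members were then higher and 1, 1, 0, 12, 37, 32 and 33 lower, from Dox against Mock to 48 h. The same counts over all genes were not taken, so these numbers include the shift of all genes. In the same order 10, 32, 31, 15, 19, 12 and 5 members lay above the median of all genes, under either scaling. Under dm6 scaling 18 of the 19 members lower in Dox than Mock changed sign. So did the 1 lower after 1 h, all 8 higher after 12 h, 3 of the 5 higher after 24 h and 2 of the 3 higher after 48 h. None of the other members that passed the test changed sign, among them every one that was lower after 6 h of auxin or more. Directions below are relative to the typical gene unless the dm6 value is given beside them.

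**Figure D2:**
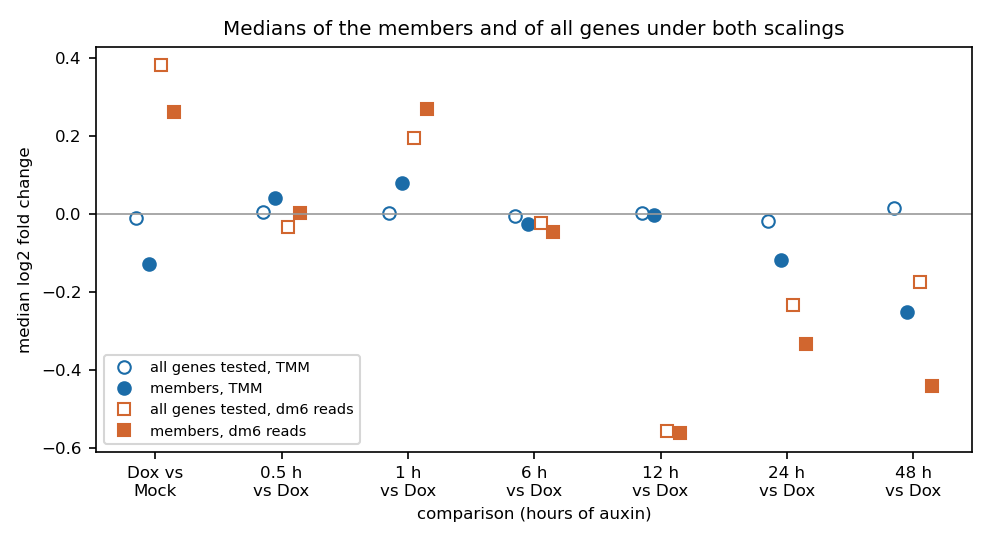
The median log2 fold change (vertical axis) is plotted for each comparison (horizontal axis), for the 38 members and for all 15155 tested genes, under TMM and under scaling to dm6 reads. The members lie below all genes in Dox against Mock, at 24 h and at 48 h under both scalings, while the sign of both medians in Dox against Mock depends on the scaling.

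The 8 alpha ring genes had a median log2 fold change of -0.25 at 24 h and -0.42 at 48 h, and all 8 were negative at both times. At 48 h 7 of them passed the test as lower, 1 of these past 1.5-fold, beside 31.4% and 17.6% of all tested genes. The exception was Psma6, the most abundant of the ring, with a log2 fold change of -0.027. It stood at 398 and 362 TPM in Dox and at 373 and 367 TPM at 48 h, so that its groups overlapped.

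Psma8 changed most of all members. Its TPM was 20.2 and 19.6 in Mock, 17.9 and 17.2 in Dox, 19.0 and 21.9 after 0.5 h, 16.3 and 15.7 after 1 h, 13.96 and 14.1 after 6 h, 8.23 and 9.34 after 12 h, 7.36 and 5.37 after 24 h and 4.46 and 3.64 after 48 h. Each of the 6 libraries from 12 h on lay below every earlier one. It fell by 48.3% after 12 h (log2 fold change -0.95 ± 0.14, SE, edgeR adjusted p = 4.9e-06). It fell by 64.6% after 24 h (-1.50 ± 0.16, adjusted p = 8.1e-09) and fell by 76.8% after 48 h (-2.10 ± 0.17, adjusted p = 1.1e-10). The gene lies on chromosome 18.

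Psma7, the constitutive counterpart of Psma8, took another course. It stood at 185 and 191 TPM in Dox and at 182 and 180 TPM at 24 h, where it did not pass the test, and at 131 and 134 TPM at 48 h, where it was lower (log2 fold change -0.49 ± 0.044, SE, adjusted p = 7.7e-10). Psma4 and Psma3 were lower by similar amounts at 48 h. Psma4 went from 264 and 256 TPM in Dox to 176 in both 48 h libraries (-0.55 ± 0.042, adjusted p = 6.2e-11), and Psma3 from 196 and 197 TPM to 140 and 136 TPM (-0.50 ± 0.045, adjusted p = 7.4e-10). Both had already been lower at 24 h, at -0.32 and -0.31. The decreases of the alpha genes at 48 h ranged from -2.10 for Psma8 to -0.12 for Psma1, and none of the 7 lower alpha genes had libraries that overlapped with Dox.

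The 7 constitutive beta ring genes moved less, with a median log2 fold change of -0.060 at 24 h and -0.12 at 48 h. None passed 1.5-fold at any time, where at 24 h 20.2% of all tested genes were called higher and 20.3% lower. At 1 h all 7 had a positive log2 fold change and 3 passed the test, Psmb7 at 0.18, Psmb3 at 0.17 and Psmb6 at 0.15. Of all tested genes 3.78% were higher then. At 48 h 4 were lower and 1 higher, beside 31.4% and 32.5% of all tested genes. Psmb1 and Psmb4, which carry no proteolytic site, passed the test in neither of the late comparisons.

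The 3 catalytic beta subunits differed from one another. Psmb5, which cuts after hydrophobic residues, stood at 491 and 494 TPM in Dox, 406 and 425 TPM at 24 h and 366 and 394 TPM at 48 h. It was lower at 24 h (log2 fold change -0.28 ± 0.060, SE, adjusted p = 0.00029) and at 48 h (-0.36 ± 0.060, adjusted p = 1.3e-05), and no library of these times reached Dox. Psmb7, which cuts after basic residues, stood at 200 and 197 TPM in Dox and at 171 and 183 TPM at 48 h (-0.15 ± 0.048, adjusted p = 0.0077). Psmb6, which cuts after acidic residues, stood at 320 and 313 TPM in Mock and 290 and 280 TPM in Dox. It then stood at 335 and 329 TPM at 24 h and 321 and 328 TPM at 48 h. It was the only core gene higher at 48 h under TMM (0.20 ± 0.042, adjusted p = 0.00025), while dm6 scaling gave 0.0089. It passed as higher from 1 h on in 5 comparisons under TMM, with log2 fold changes of 0.15, 0.16, 0.19, 0.19 and 0.20, and turned to -0.37 at 12 h and -0.026 at 24 h under dm6 scaling. These 5 comparisons share the same Dox libraries, in which Psmb6 was lower than in Mock under TMM. Psmb5 and Psmb7 held counts that were not whole in every library, which means that reads were shared out between features.

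**Figure D3:**
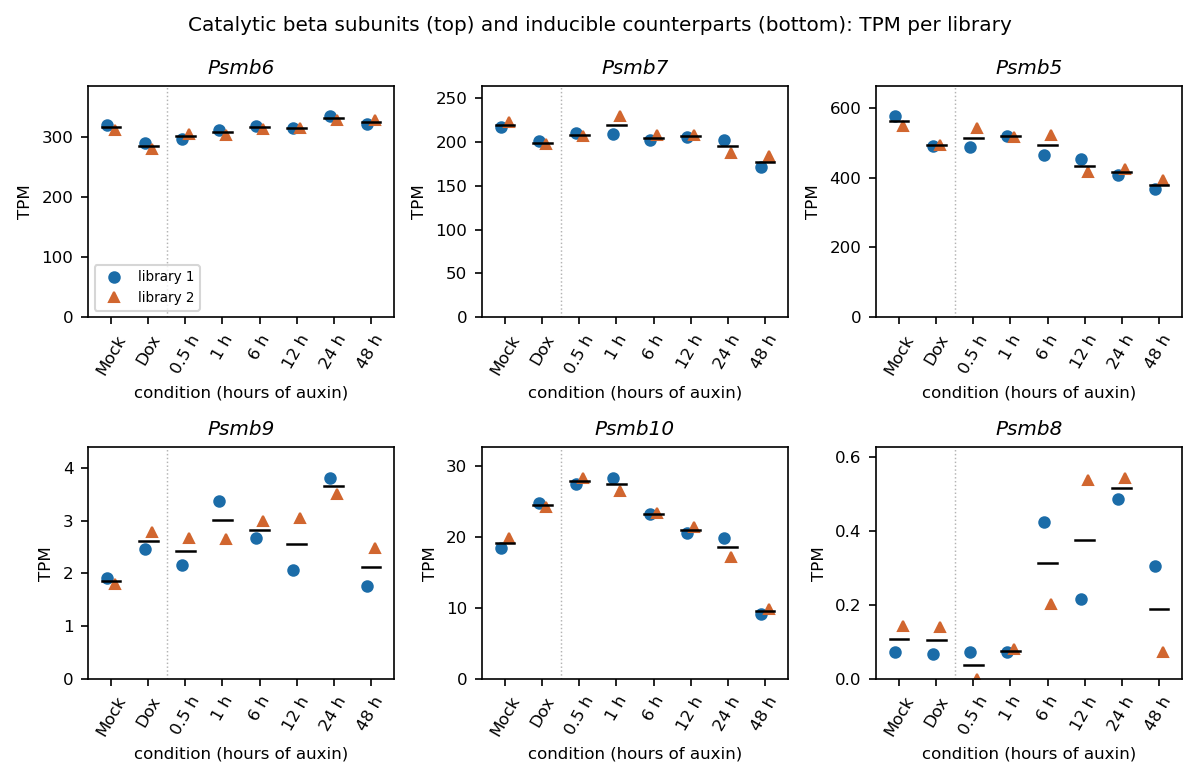
TPM per library (points; circles library 1, triangles library 2; bars the mean of both) is shown for the catalytic beta genes Psmb6, Psmb7 and Psmb5 in the top row and for their immunoproteasome counterparts Psmb9, Psmb10 and Psmb8 below, across the 8 conditions; each vertical axis starts at 0 and has its own range. Psmb5 and Psmb7 end below Dox and Psmb6 above it, and Psmb10 drops to 9.10 and 9.93 TPM at 48 h.

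Of the immunoproteasome genes only Psmb10 passed the test. It lies at chr8:105935735-105938444 on the minus strand (GRCm38), and its product takes the place of Psmb7. It stood at 18.5 and 19.8 TPM in Mock, 24.8 and 24.3 in Dox, 27.4 and 28.3 after 0.5 h, 28.4 and 26.6 after 1 h, 23.2 and 23.3 after 6 h, 20.6 and 21.4 after 12 h, 19.9 and 17.2 after 24 h and 9.10 and 9.93 after 48 h. Both Dox libraries were above both Mock libraries (log2 fold change 0.33 ± 0.12, SE, adjusted p = 0.038). Psmb10 passed the test as lower at 24 h too, with a log2 fold change of -0.43, within 1.5-fold. Both 48 h libraries were below all others, a decrease of 60.8% from Dox (-1.35 ± 0.14, adjusted p = 7.5e-09).

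Psmb9, which takes the place of Psmb6, ranged from 1.77 to 3.82 TPM and passed the test in no comparison. It overlaps Tap1, a subunit of the peptide transporter of antigen presentation, and Tap1 rose from 0.287 and 0.295 CPM in Dox to 2.38 and 3.54 CPM at 24 h (log2 fold change 3.31 ± 0.46, SE, adjusted p = 8.5e-07). Whether reads were counted by strand was not given in the sources used here, so reads of the 2 genes may not be told apart. Psmb8, which takes the place of Psmb5, ranged from 0 to 0.544 TPM and was not tested.

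Interferon is the classical inducer of these subunits, and of 14 genes of interferon response and antigen presentation 10 were tested. At 48 h 2 of the 10 were higher and 3 lower past 1.5-fold, beside 17.9% and 17.6% of all tested genes. After 6, 12 and 24 h the list had 1, 2 and 2 higher and 0, 3 and 2 lower. B2m, the light chain of class I molecules, was higher (1.16 ± 0.16, SE, adjusted p = 7.5e-07), as was Tap1. The class I heavy chain genes H2-D1 (-1.09 ± 0.11, adjusted p = 8.5e-09) and H2-K1 (-0.80 ± 0.075, adjusted p = 1.8e-09) were among those lower. Their part in the decrease of Psmb10 was not tested.

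All 6 base ATPase genes were lower in Dox than in Mock under TMM, beside 17.9% of all tested genes. Under dm6 scaling all 6 log2 fold changes were positive. Under TMM they ran from -0.37 for Psmc4 and Psmc6 to -0.12 for Psmc1, with a median of -0.28. Psmc4 went from 328 and 339 TPM in Mock to 259 and 266 TPM in Dox (adjusted p = 1e-06), and Psmc6 from 170 and 172 TPM to 134 and 136 TPM (adjusted p = 1.8e-07). Both Dox libraries of each of the 6 genes were below both of Mock.

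Along the auxin series the ATPases parted. Psmc5 lies at chr11:106256154-106263120 on the plus strand and stood at 509 and 513 TPM in Dox, 481 and 506 after 0.5 h, 476 and 488 after 1 h, 443 and 436 after 6 h, 349 and 374 after 12 h, 359 and 337 after 24 h and 328 and 323 after 48 h. It was lower from 6 h on, by -0.21, -0.45, -0.58 and -0.64, and the last of these was past 1.5-fold (± 0.047, SE, adjusted p = 2.7e-11). Psmc1, Psmc2 and Psmc6 were also lower at 24 h and 48 h, with log2 fold changes at 48 h of -0.35, -0.37 and -0.35. Psmc4 passed the test at none of 6, 12, 24 and 48 h. Psmc3 was higher at 6 h (0.19) and at 24 h (0.17), where dm6 scaling gave -0.049, and stood at 292 and 293 TPM at 48 h beside 303 and 305 TPM in Dox.

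Of the 3 other base subunits only Psmd1, a scaffold next to the ATPase ring, passed 1.5-fold, at 48 h, beside 17.6% of all tested genes called lower. It lies at chr1:86064387-86139151 on the plus strand. It stood at 134 and 138 TPM in Dox, 131 and 134 after 6 h, 125 and 130 after 12 h, 117 and 119 after 24 h and 90.1 and 86.1 after 48 h. The decrease was -0.23 ± 0.040 (SE) at 24 h and -0.61 ± 0.041 at 48 h (adjusted p = 3.7e-12), and came to -0.58 without the second library of 48 h, just short of 1.5-fold. Its counts were not whole in any of the 16 libraries and it overlaps the tested gene Gm21972 on the same strand, so that reads may have been shared out between them. Psmd2, the other large scaffold, ranged from 366 to 427 TPM and passed the test in no comparison. Psmd4, a ubiquitin receptor, was lower at 48 h by -0.22 ± 0.058 (adjusted p = 0.0022).

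The 8 lid genes moved in both directions, and none passed 1.5-fold, where at 48 h 17.9% of all tested genes were called higher and 17.6% lower. Psmd6, a scaffold of the lid, was the lowest of all members in Dox against Mock, going from 194 and 203 TPM in Mock to 141 and 139 TPM in Dox (log2 fold change -0.54 ± 0.043, SE, adjusted p = 8.5e-10). It was the 1 lower member of that comparison that stayed negative under dm6 scaling. It then reached 94.4 and 97.6 TPM at 24 h (-0.57 ± 0.047 against Dox, adjusted p = 1.5e-10) and 105 and 104 TPM at 48 h (-0.40 ± 0.046).

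Psmd3, another scaffold of the lid, moved the other way between Mock and Dox, from 115 and 114 TPM to 144 and 145 TPM (0.30 ± 0.039, SE, adjusted p = 1.4e-06). It stood at 125 and 125 TPM at 0.5 h (-0.18 ± 0.039, adjusted p = 0.0049), and was the only member to pass the test at that time. At 12 h it stood at 171 and 176 TPM, which was higher under TMM (0.32 ± 0.038, adjusted p = 1.6e-07) and lower under dm6 scaling (-0.24). Psmd14, which removes the ubiquitin chain, was likewise higher at 12 h under TMM (0.30) and lower under dm6 scaling (-0.26). At 48 h Psmd3 and Psmd8 were higher under TMM, both at 0.13, and negative under dm6 scaling at -0.061 and -0.057, while Psmd6, Psmd7, Psmd11 and Psmd12 were lower under both.

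Of the 3 chaperones of the base, Psmd9 and Psmd10 were called lower. Of all tested genes 5.7, 13.2, 20.3 and 17.6% were called lower after 6, 12, 24 and 48 h. Psmd9, at chr5:123169413-123250131 on the plus strand, stood at 7.73 and 8.45 TPM in Dox, 8.68 and 9.72 after 0.5 h, 9.20 and 9.23 after 1 h, 5.27 and 5.21 after 6 h, 4.08 and 5.04 after 12 h, 7.14 and 6.48 after 24 h and 6.78 and 6.33 after 48 h. Its 4 libraries of 6 h and 12 h were its lowest. It fell by 34.9% at 6 h (-0.62 ± 0.12, SE, adjusted p = 0.00023) and fell by 41.9% at 12 h (-0.78 ± 0.13, adjusted p = 1.2e-05), and the later values were within 1.5-fold of Dox. The 6 h call rests on the second Dox library, without which the log2 fold change was -0.55, and limma on log2(TPM + 1) gave -0.54.

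Psmd10 (gankyrin), at chrX:140948429-140956728 on the minus strand, was lower from 6 h on, level between 12 h and 24 h, and lowest at 48 h. It stood at 34.9 and 39.8 TPM in Dox, 35.2 and 39.0 after 0.5 h, 40.0 and 37.1 after 1 h, 26.3 and 26.6 after 6 h, 21.6 and 24.3 after 12 h, 25.5 and 21.6 after 24 h and 14.8 and 18.4 after 48 h. All 8 libraries from 6 h on were below those before. It fell by 36.4% after 12 h (-0.65 ± 0.13, SE, adjusted p = 0.00012), fell by 38.1% after 24 h (-0.69 ± 0.13, adjusted p = 4.6e-05) and fell by 55.1% after 48 h (-1.15 ± 0.14, adjusted p = 7.3e-08). At 12 h the value was -0.55 without the second Dox library and -0.58 without the first of 12 h, and at 24 h it was -0.56 without the second of 24 h, each short of 1.5-fold. Psmd5 did not fall. It was higher under TMM at 12 h (0.18) and at 24 h (0.30 ± 0.062, adjusted p = 0.00017), and dm6 scaling turned the first of these to -0.38.

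Psmc3ip, which is not a subunit, stood at 42.2 and 47.0 TPM in Dox and at 54.2 and 53.2 TPM at 24 h (0.24 ± 0.088, SE, adjusted p = 0.02). It passed the test at no other time of auxin.

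**Figure D4:**
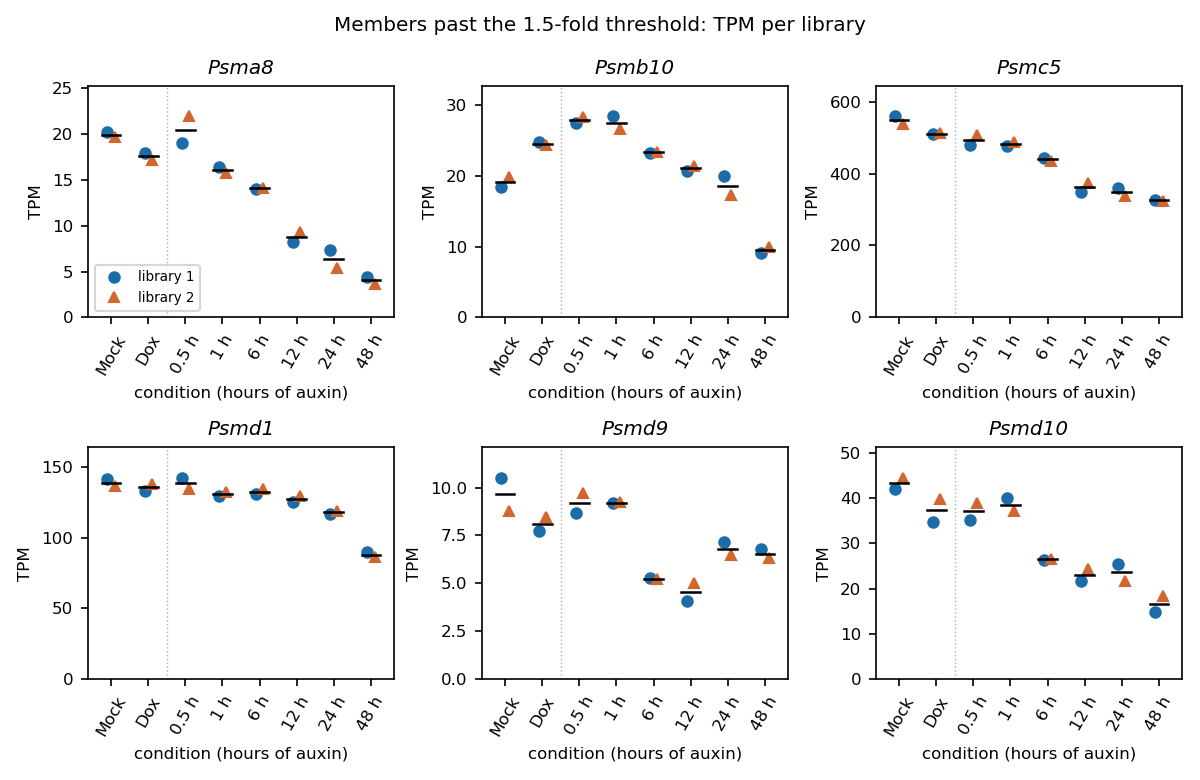
TPM per library (points; circles library 1, triangles library 2; bars the mean of both) is shown across the 8 conditions for the 6 members called lower past 1.5-fold in any comparison; each vertical axis starts at 0 and has its own range. Psma8 and Psmd10 are lowest at 48 h, Psmb10 and Psmd1 drop between 24 h and 48 h, Psmc5 declines from 6 h, and Psmd9 is lowest at 6 h and 12 h.

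The core and the regulatory particle were compared as medians of 17 tested genes each. The median log2 fold change was -0.14 for the core and -0.073 for the regulatory particle in Dox against Mock, -0.16 and -0.11 at 24 h, and -0.28 and -0.22 at 48 h. The difference between the particles was -0.068, 0.022, 0.028, 0.020, -0.030, -0.050 and -0.067 in the 7 comparisons. Taken per library against the Dox mean, the difference was -0.095 in one 48 h library and 0.079 in the other, and the SD between libraries of a condition was 0.055 on the log2 scale. Every difference between the particles was therefore of the size of the spread between libraries. At 48 h it lay between -0.12 and 0.079 when 1 library was left out, and was positive without the second Dox library (0.016) or the first of 48 h (0.079).

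The summed levels also went together. The core summed to 3920 and 3869 TPM in Mock, 3687 and 3650 in Dox, and 3126 and 3214 after 48 h. The regulatory particle summed to 3967 and 3945 TPM in Mock, 3725 and 3760 in Dox, and 3193 and 3222 after 48 h. Both 48 h libraries were below all others for both particles. Within the core, the median of the alpha ring at 48 h was -0.42 and that of the beta ring -0.12, and within the regulatory particle it was -0.35 for the ATPases and -0.12 for the lid. These differences within particles were larger than that between them, and were not tested.

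**Figure D5:**
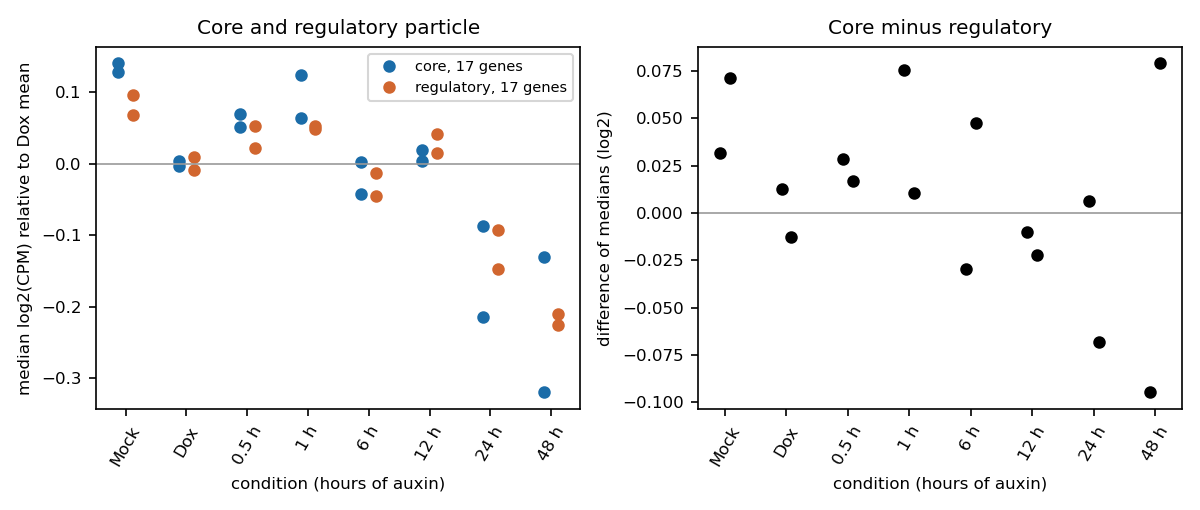
The left panel shows for each library the median over 17 core and 17 regulatory particle genes of log2(CPM) relative to the Dox mean of each gene, and the right panel the core minus regulatory difference of these medians, by condition. Both particles sit below Dox at 24 h and 48 h, and the 2 libraries of 48 h fall on opposite sides of 0 in the right panel.

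The promoter sequences of the members were read for the elements of factors known to act on subunit genes. A RefSeq table of promoter windows (GRCm38.p6, 250 bases before to 50 bases after the start) held 35 windows of 33 members, and none is shown for Psma8, Psmb1, Psmb2, Psmb7, Psmc3, Psmd3 and Psmd7. The core of the antioxidant response element, TGACNNNGC on either strand, was found in 5 of the 35 windows (14.3%) and in 12.4% of all 32851 windows of the table. These were the windows of Psmb5, Psmb6, Psmc6, Psmd9 and Psmd12. The CCAAT box, the motif of the factor NF-Y, was found on either strand in 14 windows (40.0%) against 37.4% of all, and both motifs together in none (4.37% of all). Since no window held both, no match of one overlapped a match of the other. Each share was near that of all promoters.

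Stretches ahead of the start are printed here for genes of different course, 5′ to 3′ on the strand of the gene, with matches of either motif in capitals. They end before the first exon of the RefSeq transcript and of the protein-coding GENCODE transcript that starts there, and hold 100 bases, or 74 for Psmc5, where another gene begins on the other strand. GENCODE also has a noncoding transcript of Psmd9 that begins farther upstream, so that the stretch of Psmd9 lies in an intron of it. Psmb5 and Psmb6 are the catalytic pair that parted at 48 h, Psmd9 and Psmd10 are the chaperones that fell, and Psmc5 is the ATPase that fell.
Psmb5, chr14:54618023-54618122, minus strand: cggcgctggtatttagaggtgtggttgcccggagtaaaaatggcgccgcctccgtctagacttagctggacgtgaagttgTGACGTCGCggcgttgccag
Psmb6, chr11:70525257-70525356, plus strand: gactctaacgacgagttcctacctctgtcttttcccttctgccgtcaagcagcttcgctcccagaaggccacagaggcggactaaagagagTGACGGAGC
Psmd9, chr5:123228090-123228189, plus strand: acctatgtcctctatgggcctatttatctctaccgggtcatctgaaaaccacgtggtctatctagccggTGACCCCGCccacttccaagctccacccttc
Psmd10, chrX:140956729-140956828, minus strand: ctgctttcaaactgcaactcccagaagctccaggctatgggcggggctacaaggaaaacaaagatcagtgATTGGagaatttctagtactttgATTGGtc
Psmc5, chr11:106256080-106256153, plus strand: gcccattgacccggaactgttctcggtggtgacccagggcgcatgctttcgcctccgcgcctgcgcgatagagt
The response element core thus lay before the start of Psmb5, lower at 48 h, and of Psmb6, higher at 48 h under TMM only, as well as of Psmd9. The Psmd10 stretch held the CCAAT box in reverse at 2 places, and that of Psmc5 held neither motif. A match is a run of letters and was not tested as a site.

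Other genes of the pathway were taken by list. Both subunit genes outside the symbol rule stayed within 1.5-fold. Sem1, a small lid subunit, went from 57.5 and 57.0 CPM in Dox to 38.4 and 42.4 CPM at 48 h (-0.50 ± 0.085, SE, adjusted p = 1.6e-05). Adrm1, a ubiquitin receptor, was lower at 0.5 h (-0.21 ± 0.048, adjusted p = 0.0072) and higher at 48 h under TMM (0.16 ± 0.047, adjusted p = 0.0052), where dm6 scaling gave -0.033.

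Of 6 tested chaperones and import factors of the core, none was higher past 1.5-fold, 1 was lower at 24 h and 1 at 48 h (20.3% and 17.6% of all tested genes). Psmg4 was lower at 24 h (-0.74 ± 0.12, SE, adjusted p = 1.1e-05), going from 15.9 and 16.3 CPM in Dox to 10.02 and 9.27 CPM. Psmg2, which starts the alpha ring, was lower at 48 h (-0.67 ± 0.11, adjusted p = 7.3e-06), going from 29.6 and 27.6 CPM to 18.3 and 17.7 CPM. None of the 5 activators and inhibitors (Psme and Psmf genes) and none of the 5 ubiquitin genes passed 1.5-fold at any time. At 24 h 20.2% of all tested genes were called higher and 20.3% lower, so 0 of 5 is not read as a result about these lists. Of 7 factors associated with the proteasome only Zfand2a, which responds to protein damage, passed 1.5-fold, and it was higher at 6 h (0.73 ± 0.078, adjusted p = 5.5e-08), 24 h (0.86) and 48 h (0.63). Of all tested genes 10.1, 20.2 and 17.9% were called higher at these times. Of 6 receptors and shuttles Ubqln2, which carries ubiquitinated proteins to the proteasome, was lower at 24 h (-1.50 ± 0.084, adjusted p = 1.1e-13), beside 20.3% of all tested genes.

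Among 10 tested regulators, 3 were higher and 1 lower past 1.5-fold at 48 h, beside 17.9% and 17.6% of all tested genes. In the comparisons from Dox against Mock to 24 h, 0, 0, 0, 1, 2 and 1 were higher and 1, 0, 0, 0, 0 and 1 lower. Nfe2l1, the activator of subunit genes, stood at 258 and 266 CPM in Mock, 310 and 309 in Dox, 365 and 360 after 0.5 h, 376 and 386 after 1 h, 524 and 502 after 6 h, 464 and 467 after 12 h, 421 and 406 after 24 h and 466 and 483 after 48 h. All 12 auxin libraries were above both Dox libraries. It passed the test as higher in all 7 comparisons under TMM, past 1.5-fold at 6 h (0.73 ± 0.037, SE, adjusted p = 1.7e-13), 12 h (0.59) and 48 h (0.62), while dm6 scaling gave 0.029 at 12 h. Its relative Nfe2l2, known for the response to oxidative stress, was higher at 24 h (1.08 ± 0.044, adjusted p = 2.8e-16). Of the NF-Y subunits, Nfya was higher at 12 h (0.70 ± 0.051, adjusted p = 4e-11) and at 48 h (1.06 ± 0.050, adjusted p = 7.5e-15), and Nfyc was lower at 48 h (-0.73 ± 0.063, adjusted p = 4e-10). Ngly1, the enzyme that removes glycans from NFE2L1, was lower in Dox than in Mock (-0.80 ± 0.16, adjusted p = 0.00043). Of the small Maf proteins, which bind DNA together with NFE2L1, Mafg was lower at 24 h (-0.84 ± 0.043, adjusted p = 1.8e-14) and Mafk higher at 48 h (0.85 ± 0.15, adjusted p = 3.4e-05). The signs of these calls of Nfya, Nfyc, Ngly1, Mafg and Mafk were the same under dm6 scaling. At 6 h, when Nfe2l1 mRNA was highest, 3 members passed the test as higher, Psmc3, Psmb6 and Psmd14, and 11 as lower. Of all tested genes 20.3% were higher and 22.5% lower then. These 3 members were lower in Dox than in Mock under TMM. Their 6 h means of 344, 316 and 140 TPM did not exceed those of Mock, at 364, 316 and 146 TPM. These are levels of mRNA and say nothing of the activity of these factors.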

How the data were processed

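RNA of 16 libraries was analysed. Per the labels and the study's methods, the authors used cutadapt 1.18 for trimming and STAR 2.7.3a for alignment to mm10, removed duplicates and estimated counts with RSEM 1.3.1 on GENCODE annotation. They deposited expected counts and TPM values per gene, and a table of their own fold changes and p-values, which was not used. Removing duplicates can compress the counts of abundant genes, as subunit genes are.

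Expected counts were rounded and tested with edgeR 4.0.16 (R 4.3.3; TMM, filterByExpr over 8 conditions, quasi-likelihood fit, 1 mean per condition, 16 libraries, 8 residual degrees of freedom), and the common biological coefficient of variation was 3.43%. Calls needed an adjusted p (Benjamini-Hochberg, all tested genes) under 0.05 and a change of more than 1.5-fold, as in the study's methods. DESeq2 1.42.0 on counts and limma 3.58.1 on log2(TPM + 1) or log2(TPM + 0.1), with a TPM of 1 or more in 2 libraries, were alternatives. The main edgeR fit and edgeR with the replicate number as a block were tested on counts simulated with changes at 6 h. DESeq2 on 16 libraries and limma with 1 added before the log were tested on them too. The other alternatives, scaling to dm6 reads among them, were not. Error is SE of a log2 fold change unless stated. Gene positions are those of GENCODE on GRCm38. Every member was accounted for, and by rule the text names those past 1.5-fold, the most abundant and the most changed of each role, and listed pathway genes past 1.5-fold, of which not every call is named. Other members given by library (Psma3, Psma4, Psma7, Psmb6, Psmb7, Psmc3, Psmc4, Psmc6, Psmd3 and Psmc3ip) were chosen after their values were seen. Members and lists were chosen with earlier results of these data known. Of 11 members some counts were not whole and 8 members overlap a tested gene, so that their values are less certain. The values of 1 gene of the interferon list are not reported here.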

Additional observations from a re-analysis of the deposited data

How the results depend on the processing

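The counts of members past 1.5-fold held within 1.5 times under most settings. With no fold limit the members higher became 5 in Dox against Mock, and 5, 3, 8, 5 and 3 after 1, 6, 12, 24 and 48 h, and those lower became 19, 1, 1, 11, 8, 20 and 24 from Dox against Mock to 48 h. With a fold change over 2 the members lower were 0, 0, 1 and 3 after 6, 12, 24 and 48 h. Scaling to dm6 reads gave 3 higher in Dox against Mock, and 18, 6 and 9 lower after 12, 24 and 48 h. Of all 15155 tested genes 3448 were then higher in Dox against Mock, and 6643, 4331 and 3737 lower at those times. No filter on low counts gave 4 lower at 24 h, and limma on log2(TPM + 1) gave 0 lower at 6 h and a core minus regulatory difference of 0.0079 at 48 h; the cause was not tested. Leaving out 1 library in turn gave 0 to 1 members lower at 6 h and 1 to 2 at 24 h, where the fewest came without the second Dox library and the second of 24 h. The core minus regulatory difference then ran from -0.083 to 0.0058 at 24 h, where it turned positive without the second 24 h library, and from -0.12 to 0.079 at 48 h.

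Under dm6 scaling the members that were lower in Dox than Mock turned to log2 fold changes of 0.10 for Psmc3, 0.27 for Psmb1, 0.17 for Psma2, 0.21 for Psmb6, 0.12 for Psmc3ip, 0.26 for Psmc5, 0.24 for Psma6, 0.27 for Psmc1, 0.022 for Psmc6, 0.17 for Psmb5, 0.22 for Psmb7, 0.16 for Psmd14, 0.12 for Psmc2, 0.10 for Psmd9, 0.018 for Psmc4, 0.24 for Psma1, 0.25 for Psma4 and 0.22 for Psma5. Psmd3 turned to 0.061 at 1 h. At 12 h the higher members turned to -0.45 for Psmb4, -0.39 for Psma2, -0.24 for Psmd3, -0.37 for Psmb6, -0.38 for Psmd5, -0.26 for Psmd14, -0.45 for Psmd8 and -0.44 for Psmd7. At 24 h Psmc3 turned to -0.049, Psmd3 to -0.033 and Psmb6 to -0.026, and at 48 h Psmd3 turned to -0.061 and Psmd8 to -0.057. No other log2 fold change of a member that passed the test changed sign under any setting.

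Deviations of same-numbered libraries had correlations of -0.13 to 0.17 over 28 pairs of conditions, so no large effect shared by replicate number was seen. Whether same-numbered libraries were prepared together cannot be read from this, since a small shared effect would look the same. With the replicate number as a block, 1, 3, 2 and 5 members were lower after 6, 12, 24 and 48 h, as without it. Depth limited Psmb8 and Psmb11, which could not be tested, and with 2 libraries a condition the error of each value is itself poorly known.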
